A study of Homo sapiens with 33 samples.

Results

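The solute carrier genes are taken here as the human genes whose symbols begin with SLC and a number. Most of their products move amino acids, sugars, metals, ions, nucleotides, vitamins and other small molecules across membranes. Of 374 such symbols on the array, 183 were described here as members. A member's probe had to be detected, with a detection p-value below 0.01, on every array of 1 or more groups, and the probe with the highest mean intensity stood for each gene. SLC2A1, SLC2A3 and SLC17A6 were not taken as members. For 6 members only the symbol fits, and they are not carriers. They are SLC2A4RG, SLC4A1AP, SLC6A10P, SLC7A5P2, SLC7A6OS and SLC9A3-OT1, and all counts over the members include them. The members were 183 of 10038 genes tested under the same filter. Because a probe could pass through a single group, counts over the members describe the detected genes only and not the whole superfamily.

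H9 (WA-09) human embryonic stem cells, an established line maintained on mouse embryonic fibroblast feeders and plated on Matrigel, were differentiated under 2 sets of inhibitors, and total RNA was measured on Illumina bead arrays. All 11 groups received LSB, which is LDN-193189, a BMP type I receptor inhibitor, together with SB431542, which blocks the type I receptors for TGF-beta, activin and nodal. The LSB groups, called neural in the labels, received nothing further and were sampled 6 times, at day 2 and then at the same days as the other groups. The LSB3i groups, called nociceptor in the labels, also received CHIR 99021, DAPT and SU5402, and were sampled at days 3, 5, 7, 9 and 15. CHIR 99021 inhibits the kinase GSK3, DAPT inhibits gamma-secretase and with it Notch signalling, and SU5402 inhibits FGF and VEGF receptors. The days on which each inhibitor was added are not given in the sources used here, and an LSB3i day 2 group was not analysed here. Each group held 3 arrays, lettered A, B and C. Whether the letters stand for separate cultures is not stated, and the p-values therefore reflect the array-to-array spread alone, which may be technical.

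Solute carriers set which nutrients a cell takes up and which ions it holds. Light chains of the SLC7 family work at the cell surface when paired with a heavy chain such as SLC3A2, and exchange large neutral or cationic amino acids. SLC12 cotransporters set the chloride gradient that decides whether GABA depolarizes or hyperpolarizes a neuron. SLC39 proteins bring zinc and other metals into the cytosol, SLC30 proteins remove zinc from it, and SLC25 proteins carry metabolites across the inner mitochondrial membrane.

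The arrays had mean intensities from 298 to 872, and between 103 and 163 members were detected on an array. The LSB day 7 arrays spread more than those of any other group, with a residual SD over all genes of 0.813 on the log2 scale. Array C of LSB day 7 had the lowest intensity of the series and did not detect 25 members that arrays A and B both detected. The LSB3i arrays lettered A at days 5, 7 and 9 correlated more closely over all genes with arrays B and C of the preceding day in the series (r of 0.989, 0.989 and 0.986) than with those of their own day (0.959, 0.958 and 0.970). Each difference given below for days 5, 7 and 9 is followed, in its paragraph, by its value without array A of LSB3i at days 3, 5, 7 and 9, called "without the A arrays". At day 15 all 8 pan-neuronal and all 4 sensory neuron markers tested were detected on every LSB3i array, and the mean log2 level of the pan-neuronal list lay between 13.07 and 13.15 in LSB3i and between 7.88 and 8.05 in LSB. The mean log2 level of 5 neural progenitor markers lay between 6.88 and 7.23 in LSB3i, where 1 of the 5 was detected on all 3 arrays, and between 12.39 and 12.63 in LSB, where all 5 were. Mesenchymal markers, 5 of 6 detected in both, lay between 10.44 and 10.84 in LSB3i and between 9.55 and 9.84 in LSB. AFP, an endoderm gene, lay between 8.05 and 9.14 in LSB3i and was not detected in LSB (5.54 to 6.34). Neural crest markers lay between 9.25 and 9.67 in LSB3i, with 4 of 5 detected, and between 6.57 and 6.78 in LSB, with 1 of 5 detected. Pluripotency markers lay between 8.63 and 8.81 in LSB3i, with 3 of 5 detected, and between 10.09 and 10.57 in LSB, with 4 of 5 detected. No astrocyte or endothelial marker passed the detection filter. At day 9 the pan-neuronal list lay between 9.63 and 10.73 in LSB3i (7 of 8 detected) and between 7.41 and 7.50 in LSB (4 of 8), and the neural progenitor list between 8.76 and 9.20 (3 of 5) and between 12.06 and 12.21 (5 of 5). The neural crest list lay between 8.95 and 9.98 in LSB3i at day 9 (4 of 5) and between 6.32 and 6.50 in LSB (1 of 5). At day 7 it lay between 7.45 and 9.28 in LSB3i (4 of 5) and between 5.71 and 6.73 in LSB (0 of 5), and the neural progenitor list between 9.09 and 9.46 (3 of 5) and between 11.68 and 12.11 (5 of 5). These marker differences accompany every result of days 7, 9 and 15 below, and their part in those results was not tested. In bulk samples, fewer cells of a type and less RNA per cell cannot be told apart.

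Levels below are log2 normalized intensities, and a difference of 1 on this scale is 2-fold. A gene was called higher or lower when limma's adjusted p, taken over all 10038 genes, was under 0.05 and the difference was at least 2-fold. Where no array of a group detected the probe, the fold is given as "at least", computed from the other group's mean against the lowest level among detected probes on each dim array or the probe's own level, whichever was higher. Levels of different probes are not set against each other.

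By number of calls the treatments were closest at day 3 and furthest apart at day 15. At day 3, 0 of 183 members were called (0.259% of all genes tested, 0.0498% higher and 0.209% lower), although 11 members had an unadjusted p under 0.05 in limma, and limma with array weights called 2. At day 5, 6 members were called, 4 higher and 2 lower in LSB3i, which is 3.28% of members against 3.22% of all genes tested (1.1% higher and 2.12% lower). At day 7, 53 members were called, 38 higher and 15 lower, or 29% of members against 19.3% of all genes (12.8% higher and 6.51% lower). The direction at day 7 depended on the scaling of the arrays: scaling to the median of detected probes gave 17 members higher and 33 lower, and scaling to the median of all probes gave 131, all higher. At day 9, 34 members were called, 18 higher and 16 lower, or 18.6% against 16.6% (8.32% higher and 8.26% lower). At day 15, 59 members were called, 23 higher and 36 lower, or 32.2% against 29.2% (13.3% higher and 15.8% lower). At days 5, 9 and 15 the shares of members and of all genes lay within a few points of each other, and the day 7 gap has the scaling limit just given, so the number of calls by itself does not set the members apart. The arrays of the called members did not overlap between treatments for 6 of 6 at day 5 (98.8% of all called genes), 47 of 53 at day 7 (84%), 33 of 34 at day 9 (97.7%) and 53 of 59 at day 15 (94.8%).

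**Figure D1:**
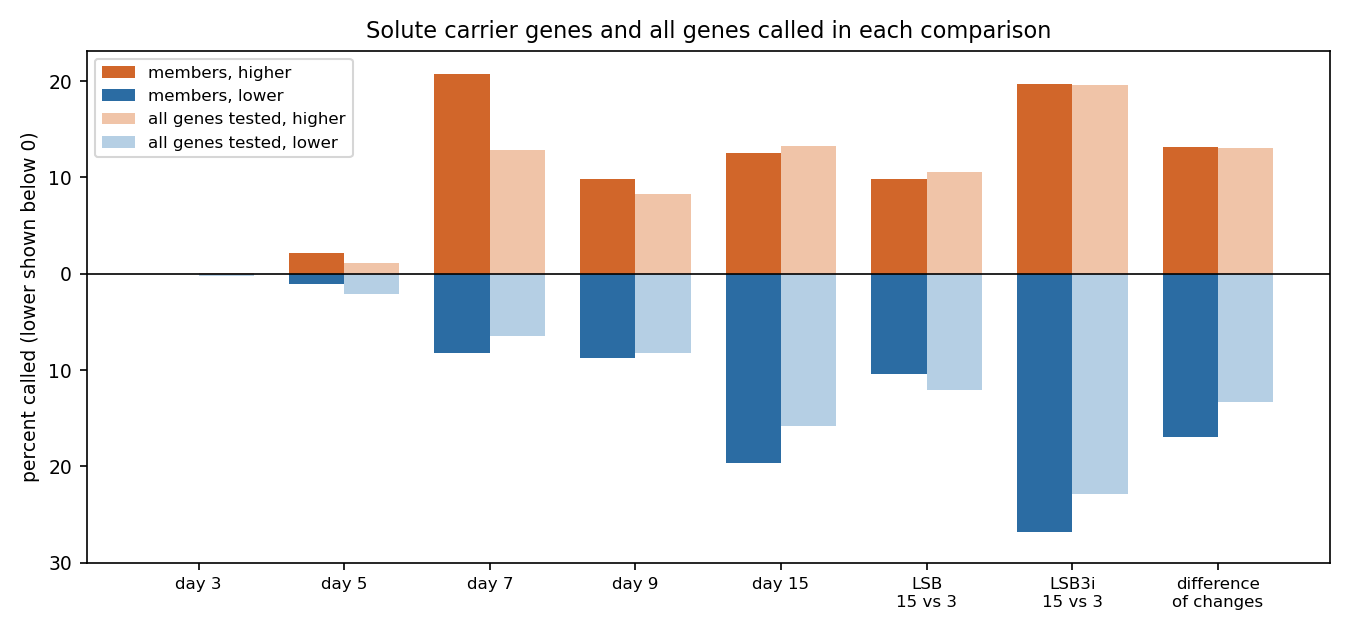
Percentage of the 183 members (dark bars) and of all 10038 genes tested (pale bars) called higher (above 0) or lower (below 0) in each comparison. Days 3 to 15 compare LSB3i with LSB, and the dark bar for higher calls stands above its pale neighbour at day 7, where 38 members were called higher; with arrays scaled to the median of detected probes 17 were higher there and 33 lower.

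Within each treatment the members also changed from day 3 to day 15. In LSB, 37 members were called, 18 higher and 19 lower at day 15, or 20.2% against 22.7% of all genes tested (10.6% higher and 12.1% lower). In LSB3i, 85 members were called, 36 higher and 49 lower, or 46.4% against 42.5% (19.6% higher and 22.9% lower). The change from day 3 to day 15 differed between treatments, by the interaction in the same limma model, for 55 members, 24 with the larger rise in LSB3i and 31 with the opposite sign, or 30.1% against 26.3% (13% higher and 13.3% lower). Scaling to the median of all probes split these calls differently, into 5 higher and 56 lower in LSB and 15 higher and 77 lower in LSB3i. These comparisons share arrays with the day 3 and day 15 comparisons, so they are not separate evidence. The LSB3i day 15 group held the highest group mean for 46 members (25.1%, against 23.2% of all genes) and the lowest for 49 (26.8%, against 27.3%). Of the members, 75 were detected on all 33 arrays, and 23 were detected on all arrays of exactly 1 group. For 10 of those 23 that group was LSB3i day 15. They were SLC12A5, SLC1A4, SLC22A15, SLC23A2, SLC35G2, SLC37A1, SLC38A10, SLC5A7, SLC8A3 and SLC9B2. SLC12A5, SLC1A4, SLC23A2, SLC5A7 and SLC8A3 were detected on no array of the 10 other groups. All 10 members named passed the filter only through LSB3i day 15, so the filter favoured calls of higher there. Such calls are included in the counts and in the list of interaction calls. They are not taken as support for a difference, and no p-value is printed for them. SLC13A4, SLC25A48, SLC39A9 and SLC9A8 passed only through LSB3i day 9. SLC2A11, SLC36A1 and SLC7A11 passed only through LSB3i day 7, and SLC27A6 only through LSB3i day 5. The same limit holds for any call of higher in those groups.

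**Figure D2:**
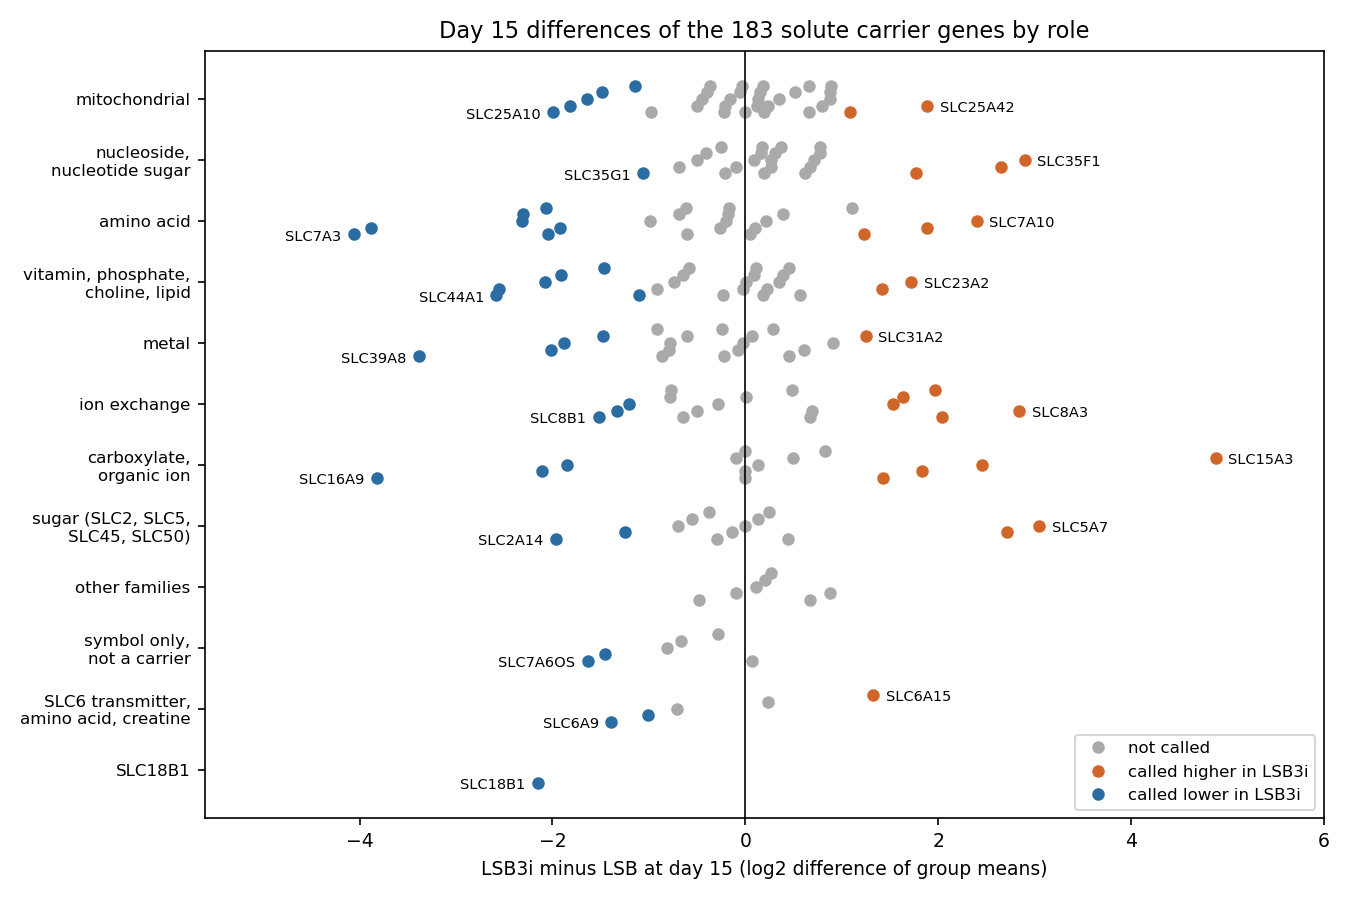
Difference between LSB3i and LSB at day 15 (log2, horizontal axis) for each of the 183 members, 1 point per gene, grouped by role on the vertical axis. Orange points were called higher, blue points lower and grey points not called, with the extreme called members of each role named; the amino acid row reaches from SLC7A3 at -4.06 to SLC7A10 at 2.40, and SLC15A3 at 4.88 is the rightmost point.

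The 23 amino acid transporters of families SLC1, SLC3, SLC7, SLC36, SLC38 and SLC43 held more lower than higher calls at day 15. In LSB3i 7 were lower (15.8% of all genes), 3 were higher (13.3%) and 13 were not called, and the median log2 difference was -0.26, beside -0.10 over all genes tested. SLC7A3, a carrier of arginine and lysine, fell furthest. Its log2 levels at day 15 were 9.27, 9.31 and 9.94 on the LSB arrays and 5.39, 5.81 and 5.12 on the LSB3i arrays. All 3 LSB3i arrays lay below all 3 LSB arrays, and none of them detected the probe. The level in LSB3i was at least 6.27-fold lower, with a fitted log2 difference of -4.06 ± 0.28 (SE, limma adjusted p = 7.57e-12), and a second probe of the gene gave -2.27. The fall came late: at day 9 the LSB3i arrays still read 9.51, 9.28 and 8.70, and at day 3 the log2 levels were 10.67, 10.33 and 10.17 in LSB3i and 10.31, 10.20 and 10.51 in LSB. At day 2 of LSB, the earliest group, the level was 11.54, 11.55 and 11.53, the highest of the series for this gene.

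Other surface transporters of cationic and large neutral amino acids were lower with it. SLC7A2, a second cationic amino acid carrier, read 7.47, 6.97 and 8.30 on the LSB arrays at day 15 and 5.21, 5.50 and 5.08 on the LSB3i arrays, where it was not detected. The groups did not overlap, and its level was at least 1.65-fold lower in LSB3i, with a fitted log2 difference of -2.32 ± 0.33 (SE). SLC7A8, the light chain LAT2 that exchanges neutral amino acids, read 9.46, 8.94 and 9.24 on the LSB arrays and 5.24, 5.42 and 5.34 on the LSB3i arrays. Again no LSB3i array detected it, and the level was at least 5.13-fold lower there, with a fitted log2 difference of -3.88 ± 0.34 (SE). SLC16A10, a carrier of aromatic amino acids that belongs to the carboxylate family, read 8.18, 8.37 and 8.66 in LSB and 6.65, 6.84 and 5.38 in LSB3i, at least 2.92-fold lower.

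SLC7A5 and SLC3A2 rose in LSB from day 3 to day 15 and were lower in LSB3i than in LSB at day 15. SLC7A5 is LAT1, the light chain that imports leucine and other large neutral amino acids, and SLC3A2 is the heavy chain it pairs with. In LSB the log2 level of SLC7A5 was 9.50, 9.75 and 9.72 at day 3 and 12.35, 12.47 and 12.99 at day 15, a rise of 2.95 ± 0.31 (SE, limma adjusted p = 7.12e-08). In LSB3i it was 9.83, 10.08 and 9.87 at day 3 and 10.69, 10.87 and 10.09 at day 15, which was not called. All LSB arrays at day 15 lay above all LSB3i arrays, and the log2 difference was -2.05 ± 0.31 (SE, limma adjusted p = 5.51e-06). SLC3A2 read 9.97, 10.48 and 10.32 in LSB at day 3 and 11.48, 11.44 and 11.94 at day 15, a log2 rise of 1.36 ± 0.25 (SE). In LSB3i it read 10.15, 10.63 and 10.21 at day 3 and 8.95, 9.65 and 9.38 at day 15. That fall, of 1.0 on the log2 scale (SE 0.25), was lost when LSB3i day 3 array B or LSB3i day 15 array A was left out, and a second probe gave 0.54 in the other direction. The day 15 difference between treatments was of one sign for both probes, -2.30 and -1.65.

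SLC1A5, the ASCT2 glutamine exchanger, read 10.63, 10.31 and 10.40 on the LSB arrays at day 15 and 7.80, 9.07 and 8.26 on the LSB3i arrays, without overlap. Its log2 difference was -2.07 ± 0.22 (SE, limma adjusted p = 2.75e-08). SLC38A9, a lysosomal arginine transporter that signals to mTORC1, was also lower, by a log2 difference of -1.92 ± 0.24 (SE). Its levels were 10.10, 10.19 and 9.85 in LSB and 8.37, 8.50 and 7.51 in LSB3i. SLC1A4, the ASCT1 serine and alanine exchanger, went the other way. It read 6.49, 6.28 and 5.55 in LSB, where no array detected it, and 7.92, 8.05 and 8.03 in LSB3i, at least 2.28-fold higher. Its probe passed the filter only through LSB3i day 15. SLC7A10, which carries serine, alanine and glycine, was at least 2.17-fold higher, with log2 levels of 5.36, 5.01 and 6.21 in LSB and 7.10, 7.88 and 8.81 in LSB3i. SLC1A1, a glutamate transporter, was the other member called higher, by 1.23 ± 0.51 (SE) on the log2 scale, and it lost the call in 12 of 16 alternatives, with log2 differences from 0.56 to 1.69 and adjusted p-values of up to 0.192.

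SLC1A3, the glutamate transporter GLAST of astrocytes and radial glia, separated the treatments early. At day 5 its log2 levels were 7.34, 7.61 and 7.76 in LSB and 10.70, 10.18 and 10.19 in LSB3i, a difference of 2.79 ± 0.48 (SE, limma adjusted p = 0.000553). Without the LSB3i A arrays it was 2.62, and it was the 1 of 6 calls of day 5 that held under every alternative processing tried. At day 3 the LSB3i arrays already read 8.03, 9.50 and 9.67, but array A lay apart from the others and the difference was not called (adjusted p = 0.894). By day 15 the LSB3i arrays had fallen to 7.41, 7.33 and 6.94, a log2 change from day 3 of -1.84 ± 0.48 (SE), and of -2.36 without the A arrays. SLC7A11, the cystine and glutamate exchanger xCT, was detected on all arrays of LSB3i day 7 only, and at day 5 it read 7.23, 6.96 and 6.58 in LSB3i, detected on 2 of 3 arrays, and 5.11, 4.88 and 5.16 in LSB, at least 1.21-fold higher. Its fitted log2 difference at day 5 was 1.88, and 1.73 without the A arrays.

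**Figure D3:**
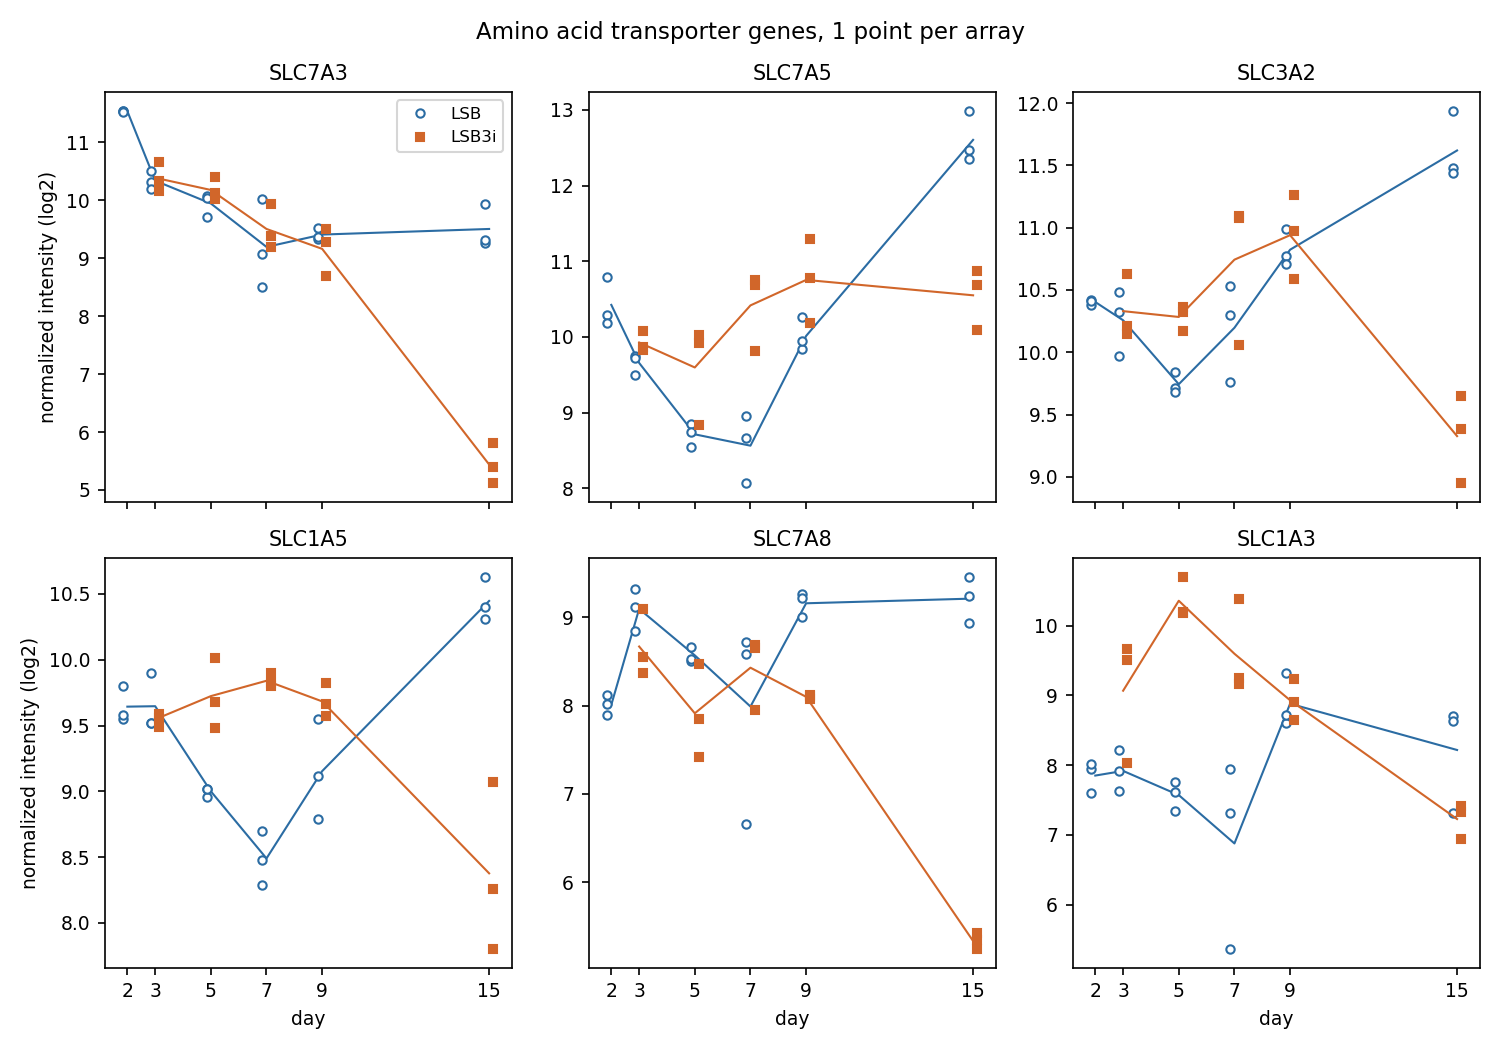
Normalized intensity (log2, vertical axis) by day (horizontal axis) of SLC7A3, SLC7A5, SLC3A2, SLC1A5, SLC7A8 and SLC1A3, with open blue circles for LSB arrays, filled orange squares for LSB3i arrays and lines through group means. The first 5 genes end lower in LSB3i at day 15, while SLC1A3 is highest in LSB3i at day 5.

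At day 7 the same family list leaned the other way, with 10 amino acid transporters higher in LSB3i (12.8% of all genes), 2 lower (6.51%) and a median log2 difference of 0.77, beside 0.09 over all genes. The split was 7 higher and 5 lower with arrays scaled to the median of detected probes, 17 higher and 0 lower with the median of all probes, and 9 higher and 1 lower without the A arrays. Of the 10 called higher, SLC36A1 and SLC7A11 passed the filter only through LSB3i day 7. The filter therefore favoured their calls, and part of the lean comes with it. SLC38A10, also among the 10, passed only through LSB3i day 15. SLC7A5 read 8.95, 8.67 and 8.07 in LSB and 9.81, 10.75 and 10.69 in LSB3i, a log2 difference of 1.85 ± 0.31 (SE). SLC7A1, the widespread cationic amino acid carrier, read 9.25, 9.07 and 8.32 in LSB and 10.18, 10.39 and 10.63 in LSB3i, a log2 difference of 1.52 ± 0.23 (SE). SLC38A1, a glutamine carrier, read 11.20, 10.94 and 10.41 in LSB and 12.05, 12.00 and 11.84 in LSB3i, a log2 difference of 1.11 ± 0.16 (SE) that was 0.89, below 2-fold, without LSB day 7 array C. In each of these 3 genes array C gave the lowest LSB value, and without the LSB3i A arrays the differences were 2.16, 1.62 and 1.07. Of single calls, scaling to the median of detected probes kept 9 of the 12 amino acid calls and reversed the sign of SLC38A10, and scaling to the median of all probes moved the median of all genes to 1.39 and kept 10. SLC38A4, an amino acid carrier of the liver and placenta, was lower in LSB3i at day 9, with log2 levels of 8.82, 9.15 and 9.40 in LSB and 5.61, 5.78 and 5.96 in LSB3i, at least 6.14-fold lower. SLC7A6, a light chain that exchanges cationic for neutral amino acids, was higher at day 9, with 7.25, 6.53 and 6.49 in LSB and 9.25, 9.88 and 9.41 in LSB3i, a log2 difference of 2.75 ± 0.49 (SE). Without the A arrays the log2 differences at day 9 were -3.25 for SLC38A4 and 2.88 for SLC7A6.

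The promoters of the amino acid members are shown because several of these genes are textbook targets of ATF4, the transcription factor of the amino acid response, which binds the C/EBP-ATF response element. The letters TGATGNAA, the usual form of that element, were searched on both strands of 300 bases of RefSeq promoter sequence (GRCh38.p14, 250 bases before to 50 after the first listed start). A sequence was matched for 158 of 183 members. The letters were in 4 of 20 amino acid promoters, in 7 of 158 member promoters (4.43%) and in 1003 of 27305 promoters in all (3.67%). The 4 amino acid promoters are given 5′ to 3′ on the strand of the gene, with the matching letters in capitals. They lie at chr11:62881449-62881748 (plus strand, SLC3A2), chr13:29595639-29595938 (minus strand, SLC7A1), chr12:46266467-46266766 (minus strand, SLC38A1) and chr5:36596338-36596637 (plus strand, SLC1A3).
SLC3A2: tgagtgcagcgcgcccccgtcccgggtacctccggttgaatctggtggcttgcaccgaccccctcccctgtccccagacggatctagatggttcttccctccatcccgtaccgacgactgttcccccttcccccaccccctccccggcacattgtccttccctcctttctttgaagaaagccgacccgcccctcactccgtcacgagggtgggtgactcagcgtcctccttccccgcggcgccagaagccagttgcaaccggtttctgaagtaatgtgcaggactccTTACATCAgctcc
SLC7A1: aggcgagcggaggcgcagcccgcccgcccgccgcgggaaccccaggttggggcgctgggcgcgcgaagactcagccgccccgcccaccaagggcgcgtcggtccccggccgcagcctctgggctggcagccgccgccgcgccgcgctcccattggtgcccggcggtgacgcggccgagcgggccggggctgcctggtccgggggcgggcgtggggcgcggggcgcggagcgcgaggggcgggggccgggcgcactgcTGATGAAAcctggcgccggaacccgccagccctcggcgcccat
SLC38A1: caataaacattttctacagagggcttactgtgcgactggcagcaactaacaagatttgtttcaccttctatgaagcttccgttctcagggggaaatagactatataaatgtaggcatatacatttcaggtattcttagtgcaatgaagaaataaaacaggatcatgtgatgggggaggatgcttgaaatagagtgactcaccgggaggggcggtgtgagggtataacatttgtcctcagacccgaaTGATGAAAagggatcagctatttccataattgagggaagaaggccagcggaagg
SLC1A3: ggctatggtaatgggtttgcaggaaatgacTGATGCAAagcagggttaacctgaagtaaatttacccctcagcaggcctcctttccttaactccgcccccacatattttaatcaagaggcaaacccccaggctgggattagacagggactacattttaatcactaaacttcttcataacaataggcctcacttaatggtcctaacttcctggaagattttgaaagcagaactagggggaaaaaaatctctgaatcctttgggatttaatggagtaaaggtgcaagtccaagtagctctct
The match in SLC3A2 reads on the opposite strand and begins 37 bases after the start. In SLC7A1 the match begins 7 bases after the start, in SLC38A1 4 bases before it and in SLC1A3 220 bases before it. A match of letters is a description and not a binding site.

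With the probes used, the 4 genes with the match did not share 1 pattern. SLC7A1, SLC38A1 and SLC1A3 were called higher in LSB3i at day 7, and SLC3A2 was not, with a log2 difference of 0.55 ± 0.25 (SE). Without the A arrays the differences were 1.62, 1.07, 2.32 and 0.89, with the same 3 genes called. Other probes gave 2.20 for SLC3A2 and 0.66 for SLC38A1 at day 7, so the day 7 pattern depends on the probe. At day 15 SLC3A2 was called lower, while SLC7A1 (-0.20 ± 0.23), SLC38A1 (-0.26 ± 0.16) and SLC1A3 (-0.99 ± 0.48) were not called. Genes of the amino acid response that are not carriers gave 6 of 9 tested higher (12.8% of all genes) and 0 lower (6.51%) in LSB3i at day 7, and 0 higher (13.3%) and 5 lower (15.8%) at day 15. Their day 7 count was 5 higher with arrays scaled to the median of detected probes, 9 with the median of all probes and 5 without the A arrays, with 0 lower in each. Those lower at day 15 were PSAT1 (log2 difference -2.55 ± 0.19), an enzyme of serine synthesis, CHAC1 (-1.90 ± 0.39), which degrades glutathione, TRIB3 (-1.87 ± 0.40), DDIT3 (-1.5 ± 0.34) and ASNS (-1.03 ± 0.29), the asparagine synthetase. From day 3 to day 15 of LSB the same list gave 6 higher (10.6% of all genes) and 0 lower (12.1%), or 3 higher and 1 lower with the all-probe median, with TRIB3 up by 3.73 on the log2 scale. ATF4 itself was not called at day 15 (-0.13 ± 0.14).

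Of the 17 ion cotransporters and exchangers, 5 were higher (13.3% of all genes) and 3 lower (15.8%) in LSB3i at day 15, with a median log2 difference of 0.01. Of the 5 higher, SLC12A5, SLC8A3 and SLC9B2 passed the filter only through LSB3i day 15, the group where they were high. Both chloride cotransporters known for setting the neuronal chloride gradient were among the higher. SLC12A2, the chloride importer NKCC1, read 7.80, 6.94 and 7.96 on the LSB arrays and 9.18, 9.18 and 8.94 on the LSB3i arrays, a log2 difference of 1.53 ± 0.38 (SE, limma adjusted p = 0.00185), and its second probe gave 1.30. SLC12A5, the neuronal chloride exporter KCC2, read 5.07, 6.68 and 5.82 in LSB, where no array detected it, and 7.94, 7.84 and 7.70 in LSB3i. The arrays of SLC12A2 did not overlap between treatments, and SLC12A5 was at least 2.03-fold higher. Their upstream kinases did not pass the test, with 0 of 4 tested called at day 15 and log2 differences of 0.81 for STK39, 0.31 for WNK1, 0.07 for WNK3 and -0.05 for OXSR1.

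The sodium-calcium exchangers SLC8A2 and SLC8A3, which remove calcium from excitable cells, were both higher in LSB3i at day 15 by the probes used. SLC8A1, of the same family, was detected on at most 1 array and was not a member. SLC8A3 read 6.05, 5.20 and 5.49 in LSB and 7.40, 8.56 and 9.28 in LSB3i, at least 3.04-fold higher. Its probe passed the filter only through LSB3i day 15, the group where it was high. Without the detection filter another probe stood for SLC8A3, and its log2 difference was 0.09 and not called. SLC8A2 read 6.26, 6.18 and 6.09 in LSB and 7.68, 8.55 and 8.42 in LSB3i, at least 2.65-fold higher, with no overlap between treatments. At day 9 the order of SLC8A2 was the opposite, with 7.79, 7.57 and 7.84 in LSB and 5.37, 6.39 and 6.53 in LSB3i, detected on 1 of 3 arrays, a log2 difference of -1.64 ± 0.32 (SE), or -1.27 without the A arrays. SLC8B1, the sodium-calcium exchanger of mitochondria, read 6.50, 7.22 and 6.79 in LSB at day 15 and 5.47, 5.37 and 5.11 in LSB3i, where no array detected it, so no fold is given. The sodium gradient that drives many carriers is made by the sodium-potassium ATPase, and 3 of its 7 genes tested were higher (13.3% of all genes) and 0 lower (15.8%) at day 15. They were FXYD7 (log2 difference 3.08 ± 0.27), ATP1B1 (1.91 ± 0.18) and FXYD5 (1.14 ± 0.33).

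SLC5A7, the high-affinity choline transporter of cholinergic nerve endings, was detected in LSB3i at day 15 alone. Its log2 levels there were 8.69, 7.77 and 7.57, against 4.83, 5.01 and 5.03 in LSB, at least 2.29-fold higher. The 10 other groups had means between 4.86 and 5.37. SLC44A1, a choline carrier of most cells, differed in the other direction. It read 12.11, 11.94 and 12.03 in LSB and 9.46, 9.67 and 9.19 in LSB3i, a log2 difference of -2.58 ± 0.56 (SE), and a second probe gave -0.87. Of the vesicular and plasma membrane carriers of other transmitters, SLC17A7, SLC18A2, SLC18A3 and SLC32A1 were detected on 0 of 33 arrays and SLC1A2 on at most 2, so none was a member. TH and DDC, enzymes of dopamine synthesis, were called higher in LSB3i at day 15, by 2.20 and 1.93 on the log2 scale, and GAD1, which makes GABA, was not (0.09).

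SLC15A3, a lysosomal carrier of histidine and small peptides, had the widest range of group means of any member, 6.34 on the log2 scale. Its levels at day 15 were 8.09, 7.41 and 7.37 in LSB and 12.00, 12.94 and 12.58 in LSB3i, a log2 difference of 4.88 ± 0.30 (SE, limma adjusted p = 5.99e-13), the largest among the members at day 15. Before that it had been lower in LSB3i. At day 9 it read 8.02, 8.20 and 8.62 in LSB and 6.35, 6.19 and 5.94 in LSB3i, where no array detected it, at least 3.44-fold lower, with a fitted log2 difference of -2.12, or -2.22 without the A arrays. The day 5 call for this gene (-1.03 ± 0.30 on the log2 scale, adjusted p = 0.0411) was lost when any LSB day 5 array or LSB3i day 5 array B or C was left out, and was -1.27 without the A arrays.

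**Figure D4:**
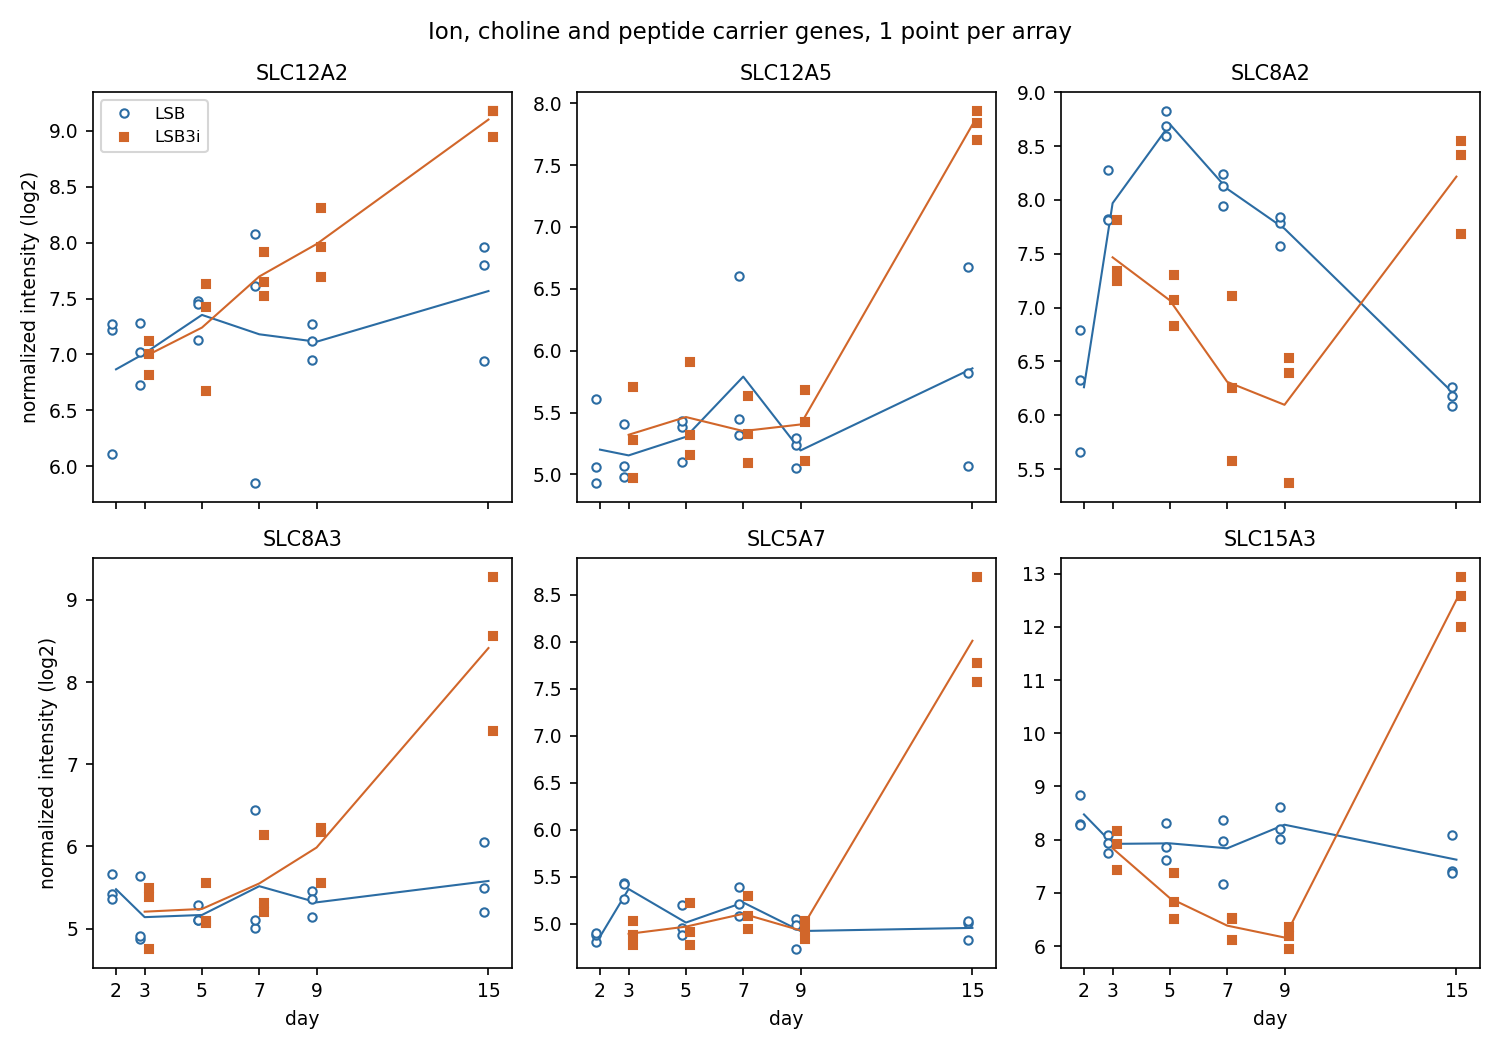
Normalized intensity (log2, vertical axis) by day (horizontal axis) of SLC12A2, SLC12A5, SLC8A2, SLC8A3, SLC5A7 and SLC15A3, with open blue circles for LSB arrays, filled orange squares for LSB3i arrays and lines through group means. In all 6 panels the LSB3i arrays of day 15 lie above the LSB arrays of day 15, and in SLC8A2 and SLC15A3 the order at day 9 is the reverse. SLC12A5, SLC8A3 and SLC5A7 passed the filter only through LSB3i day 15.

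Among the 19 metal carriers, 7 were higher (12.8% of all genes) and 0 lower (6.51%) in LSB3i at day 7. At day 9, 3 were higher (8.32%) and 0 lower (8.26%), and at day 15, 1 was higher (13.3%) and 4 lower (15.8%). Of the 3 higher at day 9, SLC39A9 passed the filter only through LSB3i day 9, so the filter favoured its call. The counts of days 7 and 9 were the same without the A arrays. The 7 calls at day 7 became 3 when arrays were scaled to the median of detected probes, with SLC30A1 and SLC39A9 of opposite sign. SLC39A8, the importer ZIP8 of zinc and manganese, changed direction between the treatments. At day 9 it read 5.95, 6.21 and 6.39 in LSB, with no array detected, and 9.06, 8.50 and 8.61 in LSB3i, at least 4.51-fold higher, with a fitted log2 difference of 2.54, or 2.37 without the A arrays. At day 15 it read 8.89, 8.27 and 8.47 in LSB and 4.88, 5.48 and 5.13 in LSB3i, with no array detected, at least 3.22-fold lower. The arrays of the treatments did not overlap at either day. SLC39A10, the zinc importer ZIP10, read 11.40, 10.96 and 10.42 in LSB at day 15 and 9.35, 8.10 and 9.28 in LSB3i, a log2 difference of -2.01 ± 0.30 (SE). SLC39A14, the zinc and iron importer ZIP14, was higher at day 7 by 1.98 ± 0.28 (SE), or 1.93 without the A arrays, and lower at day 15 by a log2 difference of -1.48 ± 0.28 (SE).

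SLC30A3, which loads zinc into synaptic vesicles, fell under both treatments. In LSB its log2 levels were 7.72, 8.19 and 7.78 at day 3 and 5.33, 5.36 and 6.22 at day 15, at least 2.12-fold lower. In LSB3i they were 8.22, 7.66 and 7.65 at day 3 and 5.88, 5.35 and 5.02 at day 15, at least 1.98-fold lower, with a fitted log2 change of -2.43, or -2.24 without the A arrays. At day 15 it was detected on no array of either treatment. The zinc-binding metallothioneins gave 0 higher (0.0498% of all genes) and 5 lower (0.209%) of 6 tested in LSB3i already at day 3. At day 5 the counts were 0 higher (1.1%) and 0 lower (2.12%). At day 7 they were 0 higher (12.8%) and 5 lower (6.51%), and at day 9, 2 higher (8.32%) and 0 lower (8.26%). At day 15, 1 was higher (13.3%) and 4 lower (15.8%). The counts of days 3, 5 and 9 are given with all arrays only. The day 7 counts were the same with the median of detected probes and without the A arrays, and 1 higher and 2 lower with the median of all probes. MT1G had a log2 difference of -4.64 ± 0.44 at day 15 and MT2A one of 1.34 ± 0.22.

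The 32 mitochondrial carriers held 2 higher and 5 lower calls in LSB3i at day 15, against 13.3% and 15.8% of all genes, with a median log2 difference of 0.06. The aspartate-glutamate carriers SLC25A12 and SLC25A13, which work in the malate-aspartate shuttle, were both higher in LSB3i at day 9. SLC25A12 read 5.47, 5.03 and 5.69 in LSB, where it was not detected, and 7.97, 7.81 and 7.89 in LSB3i, at least 2.53-fold higher. SLC25A13 read 10.07, 9.74 and 10.02 in LSB and 11.56, 11.93 and 12.03 in LSB3i, a log2 difference of 1.89 ± 0.24 (SE). Without the A arrays the fitted differences at day 9 were 2.45 for SLC25A12, from 2.49, and 2.03 for SLC25A13. At day 15 the genes differed. SLC25A12 read 7.92, 7.62 and 7.77 in LSB and 7.99, 8.58 and 7.13 in LSB3i, with overlapping arrays. SLC25A13 read 11.49, 10.25 and 11.24 in LSB and 9.25, 9.30 and 8.97 in LSB3i, a log2 difference of -1.82 ± 0.24 (SE) without overlap. SLC25A37, mitoferrin-1, which imports iron for heme synthesis, was lower in LSB3i at day 9, with 10.22, 10.73 and 10.82 in LSB and 8.77, 8.26 and 8.20 in LSB3i, a log2 difference of -2.18 ± 0.29 (SE), or -2.36 without the A arrays. SLC25A42, a coenzyme A carrier, was higher at day 15 by 1.89 ± 0.26 (SE).

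**Figure D5:**
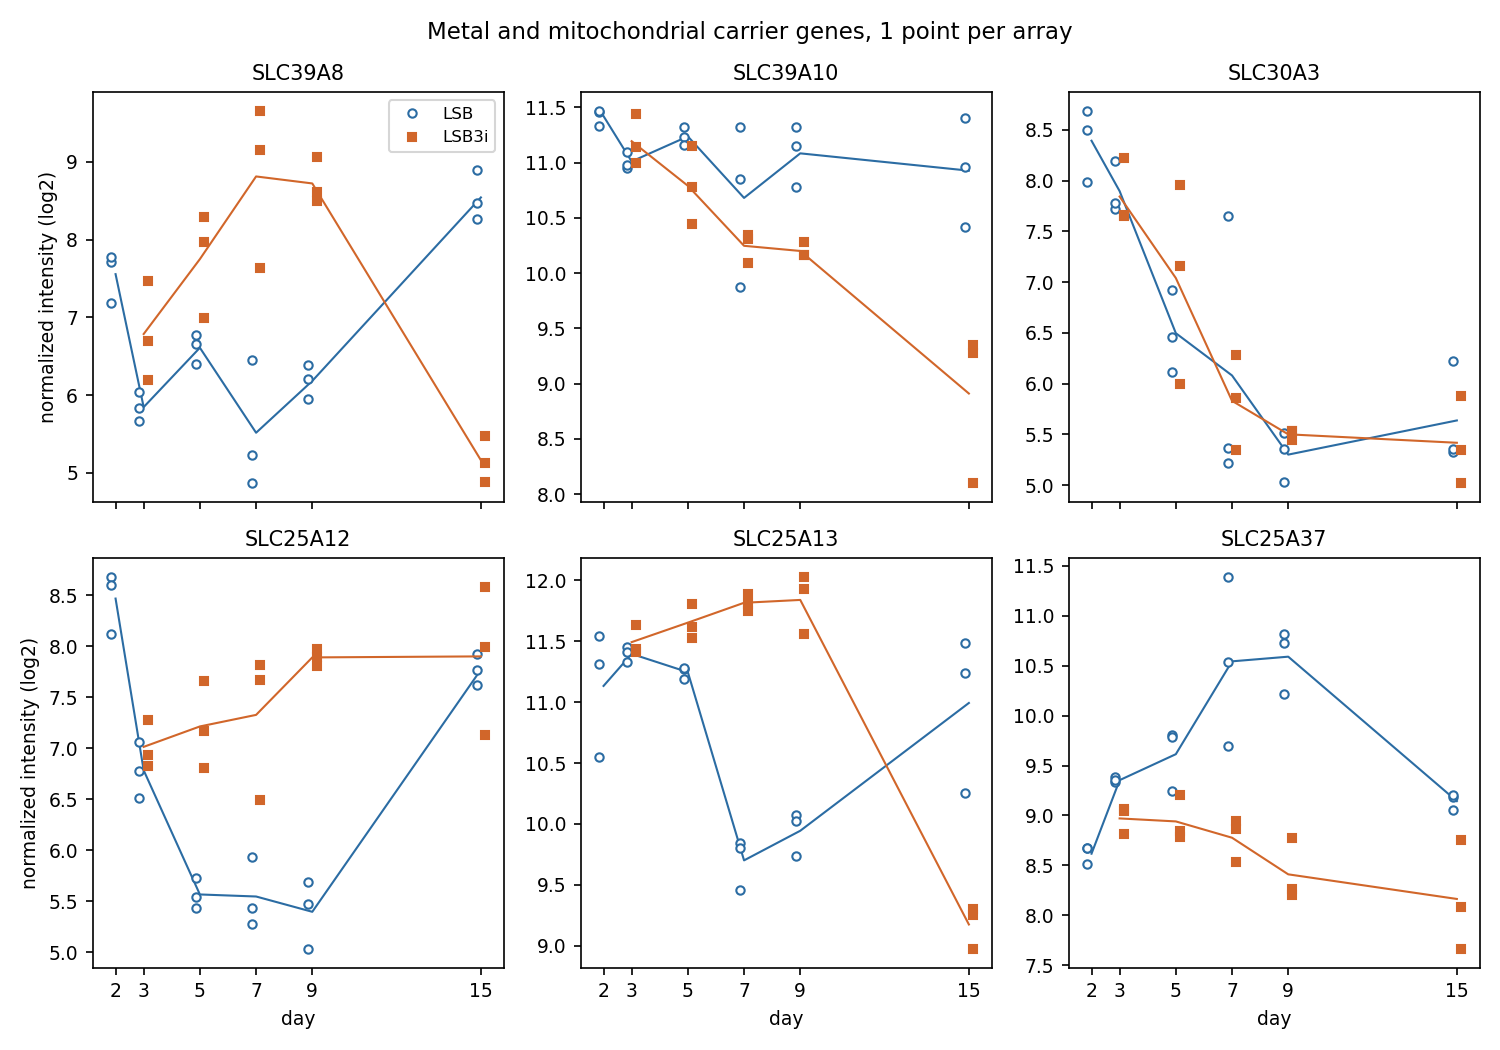
Normalized intensity (log2, vertical axis) by day (horizontal axis) of SLC39A8, SLC39A10, SLC30A3, SLC25A12, SLC25A13 and SLC25A37, with open blue circles for LSB arrays, filled orange squares for LSB3i arrays and lines through group means. SLC39A8 and SLC25A13 are higher in LSB3i at days 7 and 9 and lower at day 15, and SLC30A3 falls under both treatments.

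The adenine nucleotide carrier SLC25A5 shows how 1 array can set a value. Its log2 levels at LSB day 7 were 13.56, 14.16 and 5.08, and array C alone put it at a log2 difference of 3.31 ± 1.16 (SE), which was 0.39 without that array. Without the LSB3i A arrays it was 3.28 and not called (adjusted p = 0.0786). Of the 53 calls of day 7, 14 were lost without LSB array C. The phosphate carrier SLC25A3 stayed between 13.79 and 14.56 in its group means, and the phosphate importer SLC20A1 between 10.53 and 11.08, and neither was called at day 15.

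The list of sugar and polyol carriers held 13 members. It was drawn by family number, so it also holds members that carry other substrates, SLC5A7 among them. SLC2A6, a lysosomal glucose transporter family member (GLUT6), read 6.65, 7.48 and 7.90 in LSB at day 15 and 10.16, 9.86 and 10.15 in LSB3i, a log2 difference of 2.72 ± 0.31 (SE, limma adjusted p = 6.75e-08). SLC2A12, the glucose transporter GLUT12, was lower in LSB3i at day 9, with 8.94, 9.40 and 9.06 in LSB and 5.75, 6.20 and 5.87 in LSB3i, at least 6.2-fold lower. SLC5A3, which imports the osmolyte myo-inositol, read 8.39, 8.52 and 8.86 in LSB and 6.38, 6.21 and 6.16 in LSB3i at day 9, at least 4.25-fold lower. In each of these 3 genes the arrays of the treatments did not overlap, and without the A arrays the fitted log2 differences at day 9 were -3.10 for SLC2A12, from -3.19, and -2.41 for SLC5A3, from -2.34. SLC6A8, the creatine transporter, was lower in LSB3i at day 7 (9.69, 10.55 and 9.87 in LSB, 8.27, 7.10 and 7.65 in LSB3i) and at day 9 (8.90, 8.90 and 9.09 in LSB, 7.31, 7.15 and 6.85 in LSB3i). The log2 differences were -2.36 ± 0.27 and -1.86 ± 0.27 (SE), or -2.66 and -1.96 without the A arrays. The transcribed copy SLC6A10P is nearly identical to SLC6A8 and its probe moved the same way (-1.80 at day 7, or -2.11 without the A arrays), so signal of the pair may be shared, as it may for SLC7A5P2 with SLC7A5 and for SLC2A14 with SLC2A3.

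SLC16A9, a monocarboxylate family carrier of carnitine, was bright until day 15 of LSB3i. It read 11.16, 10.90 and 11.54 in LSB at day 15 and 7.60, 7.01 and 7.53 in LSB3i, a log2 difference of -3.82 ± 0.29 (SE, limma adjusted p = 3.99e-11), while all the other group means lay between 10.79 and 11.71. SLC13A4, a sulfate carrier, was at least 4.31-fold higher in LSB3i at day 9, with 4.95, 5.09 and 5.37 in LSB and 8.11, 9.05 and 8.81 in LSB3i, and a fitted log2 difference of 3.52, or 3.79 without the A arrays. SLC13A4 passed the filter only through LSB3i day 9, the group where it was high, so its day 9 call is not taken as support. At day 7 its LSB3i arrays read 5.54, 8.98 and 8.68, with array A apart. At day 7 the level was at least 1.29-fold higher, with a fitted log2 difference of 2.85 ± 0.56 (SE), and 3.94 without the A arrays. SLC35F1 and SLC35G2, members of the nucleotide sugar family whose substrates are not settled, were higher at day 15 by 2.90 ± 0.33 and 2.65 ± 0.32 (SE). SLC35F1 read 9.08, 8.51 and 8.80 in LSB and 11.88, 11.51 and 11.68 in LSB3i, and SLC35G2 read 6.25, 6.40 and 6.84 in LSB and 9.15, 9.20 and 9.10 in LSB3i. SLC23A2, the vitamin C importer, read 5.77, 5.97 and 6.40 in LSB at day 15, where no array detected it, and 7.64, 7.65 and 8.01 in LSB3i, at least 1.94-fold higher. Both SLC35G2 and SLC23A2 passed the filter only through LSB3i day 15, the group where they were high.

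SLC48A1, a heme transporter, and SLC27A2, which activates and imports fatty acids, rose in LSB from day 3 to day 15 and were not called higher in LSB3i. SLC48A1 read 6.84, 6.46 and 6.54 at LSB day 3 and 8.85, 8.71 and 9.05 at LSB day 15, a log2 rise of 2.26 ± 0.35 (SE). At day 15 of LSB3i it read 6.66, 7.42 and 6.28, and the treatments differed by -2.08 ± 0.35 (SE). SLC27A2 read 8.53, 7.66 and 8.31 in LSB and 5.39, 6.10 and 5.37 in LSB3i at day 15, at least 2.48-fold lower. SLC66A3 fell under both treatments, by 2.43 in LSB and by 2.31 in LSB3i (2.35 without the A arrays) on the log2 scale from day 3 to day 15.

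Between day 9 and day 15, comparisons that share no arrays, 8 members were called in opposite directions, or 4.37% of members against 1.59% of all genes tested. SLC39A8, SLC25A13, SLC35G1, SLC25A10 and SLC18B1 were higher in LSB3i at day 9 and lower at day 15. SLC7A10, SLC8A2 and SLC15A3 were lower at day 9 and higher at day 15. The day 9 call of SLC7A10 (-1.30 ± 0.43 SE) was lost when the LSB3i A arrays of days 3 to 9 were left out (limma adjusted p = 0.0804). Another 9 members were called in the same direction at both days, 3 higher (3.37% of all genes) and 6 lower (3.28%), and the members' shares were 1.64% and 3.28%. SLC18B1, a vesicular polyamine transporter, read 8.03, 8.51 and 8.04 in LSB and 9.23, 10.13 and 10.05 in LSB3i at day 9, and 10.70, 10.45 and 10.58 in LSB and 8.96, 7.90 and 8.43 in LSB3i at day 15. Its log2 difference at day 9 was 1.61, or 1.90 without the A arrays. SLC25A10, the mitochondrial dicarboxylate carrier, was at least 1.79-fold higher at day 9 and at least 1.96-fold lower at day 15. Its fitted log2 difference at day 9 was 1.62, or 1.68 without the A arrays. SLC35G1 had 1.76 ± 0.39 at day 9, or 1.60 without the A arrays, and -1.06 ± 0.39 (SE) at day 15.

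The probe chosen mattered for a few members. Of 34 members with more than 1 detected probe, 8 had day 15 differences of opposite sign between probes. SLC6A15, a carrier of branched-chain amino acids and proline, was the clearest, with a log2 difference of 1.33 for the probe used and -1.58 for the other. Its direction at day 15 is therefore not settled.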

How the data were processed

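Total RNA of 33 H9 samples was measured on Illumina human bead arrays, and GenomeStudio is named in the submitters' processing notes, whose version the sources used here do not give. The deposited table holds a linear, non-normalized intensity and a detection p-value for each of 48803 probes and array, per the file headers. The authors' second deposited table holds normalized intensities by an unstated method, with probe identifiers that matched those of the non-normalized table for 4.91% of 48780 probes paired by rank, so it served as an alternative only. Its array medians lay between 172.4 and 172.7. Its scale is linear, and its centring and method stay unknown.

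With R 4.3.3 and limma 3.58.1, intensities were background corrected by normexp from the detection p-values (offset 16), quantile normalized and set on a log2 scale. Probes detected (p below 0.01) on every array of 1 or more groups were kept, and the probe with the highest mean intensity stood for a gene (10038 genes). Probe symbols came from GEO's platform annotation with current symbols: 28098 probes had 1 symbol, 13 had several and 20692 had none and were left out. One model with 11 group means and 22 residual degrees of freedom gave 8 comparisons, with Benjamini-Hochberg adjustment over all genes within each. Roles were assigned by family number. The members named are, for each comparison, the highest and lowest called members overall and per role, the brightest and widest-ranging members, those detected in 1 group, and a panel of carriers known in neural cells. The members, lists and tests were chosen with earlier results of these data known. On simulated data with 200 of 10038 genes changed, the day 15 comparison recovered 80% of genes changed by 1.5 and 97% of those changed by 2.5 on the log2 scale, with 9 unchanged genes called. The simulation gave each gene the same spread in every group and had no background floor. In the data the group SDs ran from 0.213 to 0.813, so these rates check the code and do not describe the calls above. Arrays with the same letter did not pair across groups: the mean correlation of their deviations was 0.00384, against -0.00152 for other letters. The number of arrays limits the precision. Alternatives were the scaling, offset, detection filter, probe rule, array weights, the groups in the model, a letter block, the authors' values and leaving out arrays.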

Additional observations from a re-analysis of the deposited data

Results flagged for a closer look

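The change from day 3 to day 15 differed between LSB3i and LSB, by the interaction term of limma with an adjusted p under 0.05 and a difference of at least 2-fold, for 55 members, or 30.1% of members against 26.3% of all genes tested. The values below are log2 differences of the changes, LSB3i minus LSB, with a median SE of 0.397, and a negative value means that the change was lower in LSB3i. For 27 of the 55, at least 1 of the 4 groups had no array that detected the probe, so these values depend on the background and are neither measured folds nor bounds. SLC12A5, SLC1A4, SLC22A15, SLC23A2, SLC5A7, SLC8A3 and SLC9B2 were detected on no array of 3 of the 4 groups. These members and SLC35G2 passed the filter only through LSB3i day 15, so the filter favoured their calls, which are not taken as support. Without the detection filter another probe stood for SLC8A3, and its value was 0.02. Among the amino acid transporters, the change was lower for SLC7A3 (-4.12), SLC7A8 (-3.46), SLC3A2 (-2.37), SLC7A5 (-2.32), SLC7A2 (-2.20), SLC1A3 (-2.14), SLC1A5 (-1.97) and SLC38A9 (-1.95) and higher for SLC7A10 (2.99) and SLC1A4 (1.74). Among the carboxylate, peptide and organic ion carriers, the change was lower for SLC16A9 (-3.85), SLC16A10 (-1.89) and SLC16A5 (-1.76) and higher for SLC15A3 (4.97), SLC22A15 (2.93), SLC22A23 (2.13), SLC10A7 (1.34) and SLC22A17 (1.08). Among the ion cotransporters and exchangers, the change was lower for SLC8B1 (-1.36) and SLC26A6 (-1.33) and higher for SLC8A3 (2.77), SLC8A2 (2.54), SLC12A5 (1.81), SLC12A2 (1.56), SLC9B2 (1.38) and SLC4A5 (1.22). Among the metal carriers, the change was lower for SLC39A8 (-4.32), SLC39A10 (-2.20), SLC39A4 (-2.10), SLC39A14 (-2.0) and SLC39A1 (-1.01) and higher for SLC41A3 (1.02). Among the mitochondrial carriers, the change was lower for SLC25A10 (-2.13), SLC25A13 (-1.92), SLC25A15 (-1.65) and SLC25A11 (-1.40) and higher for SLC25A42 (1.88) and SLC25A51 (1.0). Among the nucleotide sugar family, the change was higher for SLC35G2 (2.97), SLC35F1 (2.48), SLC35C1 (1.69) and SLC35E1 (1.13). Among the SLC2 and SLC5 families, the change was lower for SLC2A14 (-1.98) and higher for SLC5A7 (3.52) and SLC2A6 (2.37). Among the vitamin, phosphate, choline and lipid carriers, the change was lower for SLC44A1 (-2.46), SLC27A2 (-2.26), SLC48A1 (-1.94), SLC27A5 (-1.86), SLC27A6 (-1.5) and SLC37A4 (-1.38) and higher for SLC23A2 (1.37). The remaining members called were SLC18B1 (-2.39), SLC7A6OS (-1.64) and SLC75A1 (1.22). SLC16A5, SLC25A11, SLC39A1, SLC41A3, SLC44A1 and SLC8B1 each lost the call when the LSB3i A arrays of days 3 to 9 were left out, SLC41A3 through its size (0.87) and the others through adjusted p-values between 0.0608 and 0.127. Over all alternatives 26 of the 55 calls were kept throughout, while SLC35E1 kept its call in 8 of 23 and SLC25A51 in 12 of 23. The probes of SLC35E1 differed in sign, with log2 changes in LSB from -1.64 to 1.18.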

How the results depend on the processing

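Over 329 called results of single members and 5841 alternative values, 5039 kept their direction and side of the threshold, 788 kept the direction only and 14 reversed. The authors' normalized values, paired by rank, gave 1 called member at day 5, 16 at day 7, 16 at day 9, 31 at day 15, 16 for LSB day 15 against day 3, 40 for LSB3i and 32 for the difference of changes. An offset of 50 without detection p-values gave 3 at day 5, 30 at day 7, 21 at day 9 and 22 for LSB day 15 against day 3. Array weights gave 2 at day 3 and 11 at day 5, and a model of only the 2 groups compared gave 20 at day 7. Scaling to the median of all probes, chosen after seeing the data, gave 131 at day 7, all of them higher, and 61 for LSB (5 higher, 56 lower). It moved the median of all genes from 0.09 to 1.39 at day 7, from -0.02 to -0.64 for LSB and from -0.11 to -0.80 for LSB3i. It split day 5 into 3 higher and 3 lower, day 9 into 32 and 13, and LSB3i day 15 against day 3 into 15 and 77. Scaling to the median of detected probes split day 7 into 17 higher and 33 lower, with an all-gene median of -0.13. Day 7 values reversed under it for SLC19A3 (-0.20), SLC23A2 (-0.27), SLC30A1 (-0.10), SLC35D4 (-0.27), SLC38A10 (-0.03), SLC39A9 (-0.06) and SLC9B2 (-0.10). Under the all-probe median they reversed for SLC16A14 (0.27), SLC25A36 (0.46), SLC2A10 (0.41), SLC44A2 (0.34) and SLC67A1 (0.15). SLC6A15 at day 15 was -0.29 over the mean of all its probes, and SLC8A3 for LSB3i day 15 against day 3 was -0.63 without the detection filter. The cause was not tested. Leaving out 1 array at a time gave 0 to 0 calls at day 3, 4 to 7 at day 5, 44 to 56 at day 7, 29 to 36 at day 9, 52 to 59 at day 15, 33 to 38 for LSB, 81 to 87 for LSB3i and 48 to 56 for the difference. With array A of LSB3i left out at days 3, 5, 7 and 9, the counts were 0, 8, 48, 36, 59 and, for LSB3i and the difference, 81 and 52. The replicate block by letter gave 0, 6, 53, 35 and 58 at days 3 to 15, and 36, 85 and 54 for LSB, LSB3i and the difference. The calls kept under every alternative were 1 of 6 at day 5, 6 of 53 at day 7, 16 of 34 at day 9, 29 of 59 at day 15, 10 of 37 for LSB, 30 of 85 for LSB3i and 26 of 55 for the difference. A slide block was not run, since no slide was named. Signal near background limits 28 of the 59 day 15 calls, which have only a bound in 1 group.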

Other observations

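Some members changed from day 3 to day 15 under both treatments, in comparisons that share no arrays. Of the 183 members, 9 were called higher in both (4.92%, against 6.49% of all genes tested), 11 were called lower in both (6.01%, against 7.63%) and 3 were called in opposite directions (1.64%, against 0.917%). SLC7A10 was the one lower in LSB and higher in LSB3i, and SLC3A2 and SLC39A8 were higher in LSB and lower in LSB3i. The LSB3i rise of SLC7A10 was lost in 6 of 16 alternatives, with log2 changes from 0.53 to 1.61, and was 1.02 with an adjusted p of 0.0637 in limma without array A of LSB3i at days 3, 5, 7 and 9. The LSB3i fall of SLC3A2 was lost in 5 of 17, with log2 changes from -1.75 to -0.23, and SLC39A8 was detected on no LSB3i array of day 15. SLC29A4, which carries monoamines, read 7.56, 8.01 and 8.28 at day 3 of LSB and 9.52, 9.45 and 9.22 at day 15, and 7.52, 8.32 and 8.20 at day 3 of LSB3i and 9.28, 9.40 and 9.20 at day 15, on the log2 scale. In both treatments the day 15 arrays lay above the day 3 arrays. SLC35B3, which brings the sulfate donor PAPS into the Golgi, had log2 changes of 1.40 in LSB and 1.43 in LSB3i, and SLC66A2 had 1.40 and 1.36. The rises of these 3 genes were no longer called under the all-probe median scaling, with log2 changes between 0.53 and 0.77. SLC16A14 rose by 1.98 on the log2 scale in LSB and at least 3.3-fold in LSB3i, where no array of day 3 detected it. The lowest log2 change among its probes was 0.86 in LSB and 0.51 in LSB3i, so the size of its rise depends on the probe. SLC46A2 was at least 1.09-fold lower in LSB and at least 1.26-fold lower in LSB3i. SLC35F2 had log2 changes of -1.23 and -1.32. The probes with the highest mean log2 level were those of SLC7A5P2 (15.23), SLC25A3 (14.05), SLC25A5 (13.87), SLC16A12 (13.37) and SLC44A4 (13.30), given without comparison since probes differ in brightness.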
